A study of Mus musculus with 5 samples.

Results

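TAF7L and RNA polymerase II (Pol II) were compared over 55419 mouse transcripts, the whole of the deposited binding table. In the distal class 4 transcripts have no value, so shares there are over 55415. The comparison rests on 1 chromatin immunoprecipitation sequencing (ChIP-seq) library for each antibody, both from testis that the labels call wild type. The protocol text of these samples names chromatin of wild-type and of Taf7l knockout testis, and the labels were followed here. The chromatin was pooled from 10 mice aged 3 months. Each transcript carries a TAF7L score and a Pol II score in each of 3 position classes called promoter, proximal and distal, and a score of 0 stands for no assigned signal. A further library, made with non-specific mouse and rabbit IgG, has no column in the table, so background was not measured on this scale. TAF7L scores were above 0 in some class for 31489 transcripts and Pol II scores for 44394. Neither antibody had a score for 10840 transcripts. Because there is 1 library per antibody, the values below are a description of these libraries, and no difference between them was tested against replicates. Testis is a mixed tissue, so a low score in bulk chromatin cannot separate fewer cells of a type from less binding per cell.

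Pol II is brought to promoters by general transcription factors, among them TFIID, a complex of the TATA-binding protein TBP and its associated factors (TAFs). TAF7L is an X-linked relative of the TFIID subunit TAF7 and is made mainly in male germ cells. TBPL1, also called TRF2, is a TBP relative needed for spermiogenesis, the stage in which round spermatids become sperm. Pol II also stays at many promoters before elongation, so a Pol II score marks an engaged or paused polymerase and not RNA output alone.

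The letters AAGATGGC, the core of the site recognised by the zinc finger factor YY1, were present in several promoters with much TAF7L relative to Pol II. Some of these are printed beside promoters with little, all picked with their values known. Among genes with both scores at or above their medians, 7 of the 10 with the highest ratios held the letters, against 10.4% of all 2725. Genes that share a start region were counted separately, so a site can count more than once. The sequences are RefSeq windows of build GRCm38.p6, matched by gene symbol and printed 5′ to 3′ from 60 bases before to 30 bases after the annotated start. Capitals mark AAGATGGC or the TATA box letters TATAAA on either strand. The 4 printed stretches with AAGATGGC come from promoters where the TAF7L score was close to the Pol II score. Their scores were 929 for TAF7L and 1050 for Pol II at Taf5, 676 and 646 at Mrps7, 488 and 417 at Tpgs1 and 394 and 437 at Srp72. Errfi1 and H3f3b had the opposite balance, with 75.3 and 2170 and with 88.2 and 1730. Both printed stretches hold TATAAA, but the median ratio of the 310 genes with both scores and TATAAA was close to that of the others. Tnp2 and Prm1 had no TAF7L promoter score beside Pol II scores of 1090 and 871. They are printed as examples only, since genes without TAF7L were not compared by sequence. In window parts that are not printed, Prm1 also holds AAGATGGC and Taf5 TATAAA.
Taf5, chr19:47067688-47067777, plus strand: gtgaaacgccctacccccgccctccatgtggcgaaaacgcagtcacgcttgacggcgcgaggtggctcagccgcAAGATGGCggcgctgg
Mrps7, chr11:115604080-115604169, plus strand: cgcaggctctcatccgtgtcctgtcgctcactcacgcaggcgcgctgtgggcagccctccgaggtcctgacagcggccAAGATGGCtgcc
Tpgs1, chr10:79669379-79669468, plus strand: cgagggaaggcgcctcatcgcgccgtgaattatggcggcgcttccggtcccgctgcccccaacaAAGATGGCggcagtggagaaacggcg
Srp72, chr5:76974641-76974730, plus strand: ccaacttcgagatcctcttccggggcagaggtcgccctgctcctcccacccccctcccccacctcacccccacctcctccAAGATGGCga
Errfi1, chr4:150855010-150855099, plus strand: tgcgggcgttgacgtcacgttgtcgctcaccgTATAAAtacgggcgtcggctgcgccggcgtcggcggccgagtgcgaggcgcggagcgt
H3f3b, chr11:116024475-116024564, minus strand: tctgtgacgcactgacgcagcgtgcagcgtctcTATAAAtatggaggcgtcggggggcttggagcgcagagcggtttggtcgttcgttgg
Tnp2, chr16:10788626-10788715, minus strand: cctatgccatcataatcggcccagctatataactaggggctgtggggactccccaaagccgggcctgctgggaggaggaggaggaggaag
Prm1, chr16:10796794-10796883, minus strand: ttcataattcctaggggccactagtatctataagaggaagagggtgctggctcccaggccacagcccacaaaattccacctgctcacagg

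Pol II was scored more widely than TAF7L in every class. In the promoter class 16039 transcripts had a TAF7L score, 28.9% of the table (95% Wilson interval 28.6 to 29.3, which covers counting over transcripts only), and 29658 had a Pol II score, 53.5% (53.1 to 53.9). In the proximal class 10984 transcripts, 19.8%, had TAF7L and 24476, 44.2%, had Pol II. The distal class was the most frequent for both antibodies, with 21477 transcripts for TAF7L, 38.8%, and 35146 for Pol II, 63.4%. For both antibodies the proximal class was thus the least frequent and the distal class the most frequent.

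Pol II scores were larger numbers than TAF7L scores in every class, and since the sources used here do not define the score, the scales of the antibodies cannot be taken as common. The median TAF7L score, over transcripts with a score, was 71.4 in the promoter class, 55.6 in the proximal class and 75.4 in the distal class. For Pol II these medians were 309, 168 and 344. Both antibodies had their lowest median in the proximal class and their highest in the distal class. TAF7L scores were also the more narrowly spread, with the middle 50% of promoter scores between 51.2 and 94.1, against 136 to 535 for Pol II.

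Nearly every transcript with TAF7L at its promoter also had Pol II there, while many transcripts with Pol II lacked TAF7L. Of the 16039 transcripts with a TAF7L promoter score, 15951 also had a Pol II promoter score, 99.5%. Of the 29658 with Pol II, 53.8% had TAF7L, so 13707 transcripts had Pol II alone and 88 had TAF7L alone. The distal class was close to this, with Pol II at 98.1% of the TAF7L-scored transcripts and TAF7L at 59.97% of the Pol II-scored ones. In the proximal class the shares were 93.9% and 42.1%, and 669 transcripts had TAF7L alone. The proximal class therefore held the most transcripts with a TAF7L score that Pol II lacked.

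The combination of classes on a transcript also differed between the antibodies. Pol II was in all 3 classes for 14500 transcripts, its most frequent combination, and TAF7L for 3238. TAF7L was most often in the distal class only, for 10862 transcripts, followed by the promoter only, for 4953, and by promoter and distal, for 4690. Pol II was distal only for 8971 transcripts and promoter only for 3892. The same combination for both antibodies was found for 14287 of the 31489 TAF7L-scored transcripts, 45.4%. Every class that held TAF7L also held Pol II for 30352 of them, 96.4%, so where combinations differed Pol II mostly had further classes. The share with the same combination was highest for all 3 classes, 91.2%, and lowest for proximal only, 18.7%. Of the 10862 transcripts with TAF7L in the distal class only, 41.5% nevertheless had Pol II at their own promoter. Seen from Pol II, of the 13707 transcripts with Pol II but not TAF7L at the promoter, 6762, or 49.3%, had TAF7L in another class and 6945 had none.

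**Figure D1:**
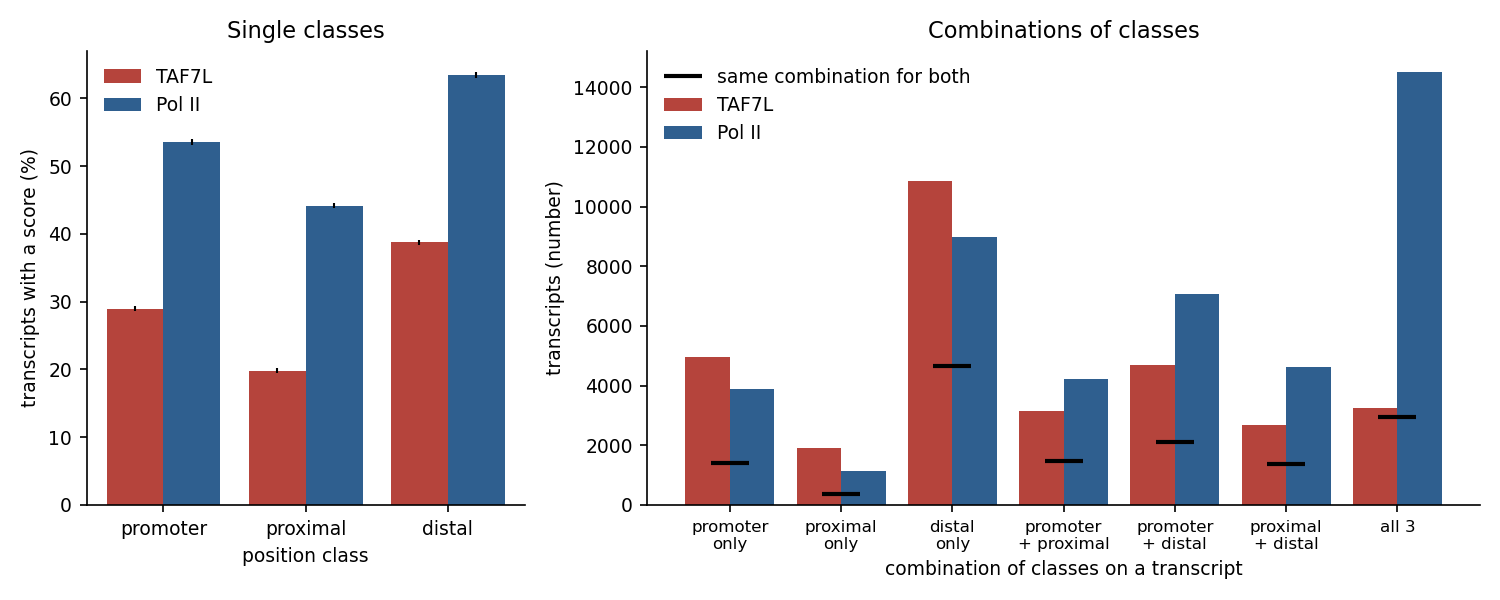
Left, the percentage of transcripts (55419, or 55415 in the distal class) with a TAF7L or a Pol II score above 0 in each position class, with 95% Wilson intervals; right, the number of transcripts with each combination of classes, where black marks give the number with that same combination for both antibodies. Pol II exceeds TAF7L in each single class, and its all 3 bar of 14500 stands beside 3238 for TAF7L.

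The extent of the classes was read from the table itself, because a score that belongs to a place between 2 genes appears at both. The start sites used here are those of named genes, from the coordinates of the expression table (build mm9). TAF7L promoter scores of 2 genes were equal in 97.98% of pairs with start sites under 100 bp apart, in 55.7% at 400 to 500 bp and in 7.06% at 800 to 1000 bp. The promoter score of 1 gene came back as the proximal score of the other in 86.2% of pairs at 1000 to 2000 bp, in 77.7% at 9000 to 10000 bp and in 6.25% at 10000 to 11000 bp. It came back as the distal score in 57.1% at 10000 to 11000 bp, in 62.5% at 48000 to 50000 bp and in 3.49% at 50000 to 52000 bp. Pol II scores changed over at the same distances. By these values the promoter class reaches about 500 bp from a start site, the proximal class from there to 10000 bp and the distal class from 10000 to 50000 bp.

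**Figure D2:**
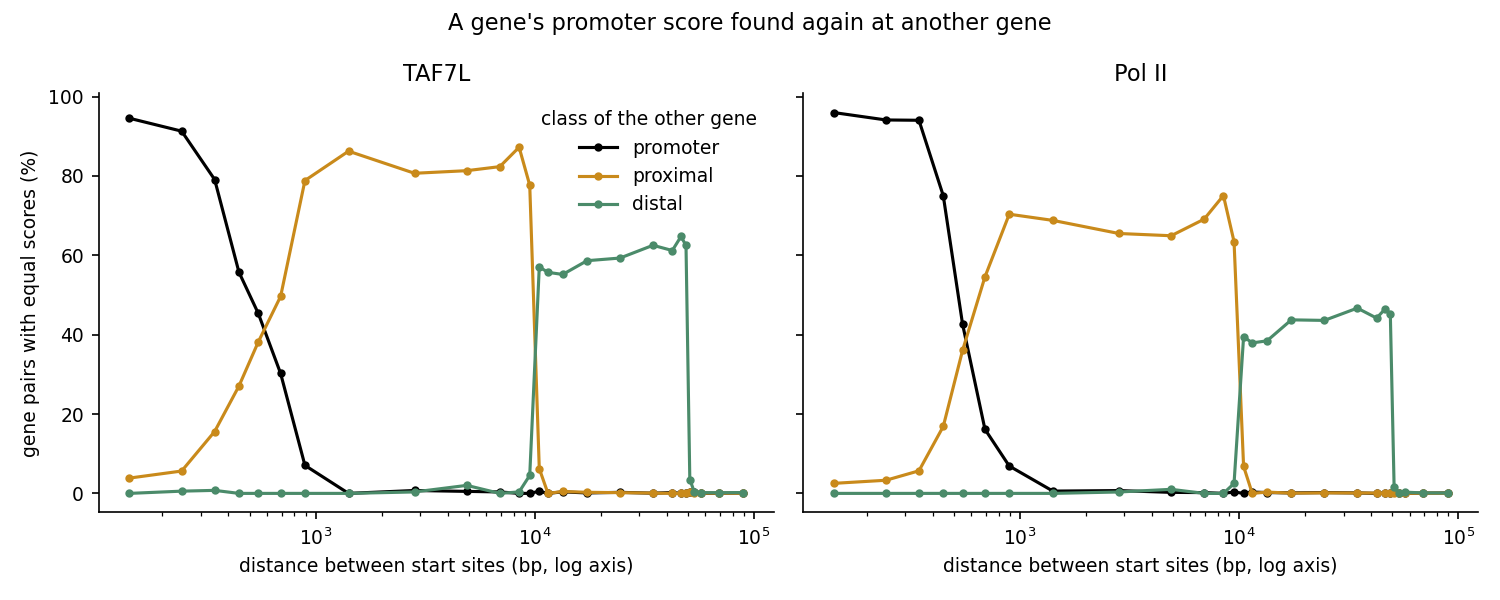
Percentage of gene pairs in which the promoter score of 1 gene equals the promoter, proximal or distal score of the other, against the distance between their start sites (bp, log axis), for TAF7L (left) and Pol II (right). For TAF7L the proximal curve ends between 77.7% at 9000 to 10000 bp and 6.25% at 10000 to 11000 bp, where the distal curve begins.

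Most distal scores of TAF7L were the promoter score of another gene. Start sites of named genes were counted, so a gene with several counts more than once. Of 10045 with a TAF7L distal score, 6915, 68.8%, matched a promoter score 10000 to 50000 bp away, against 0.239% at 60000 to 100000 bp. For Pol II this was 9283 of 15602, 59.5%, against 0.160%. Proximal scores matched a neighbour's promoter score less often, in 29.5% for TAF7L and 22.5% for Pol II. Where a start site had several scored neighbours, the TAF7L distal score equalled the highest of their promoter scores in 89.5% of 2705 start sites. It was above the highest in 9.69% and below it in 0.776%. Where several scored neighbours lay in range, the distal score was thus mostly the largest of theirs. TAF7L and Pol II usually took their distal scores from the same place. Among 6912 start sites with both distal scores whose TAF7L score matched a neighbour, the Pol II score matched that same neighbour in 5718, 82.7%.

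The protamine cluster on chromosome 16 shows this sharing. In spermatid chromatin histones give way first to transition proteins, such as that of Tnp2, and then to protamines, encoded by Prm1 and Prm2. Pol II promoter scores were 871 at Prm1, 714 at Prm2 and 1090 at Tnp2, and the same 1090 was the proximal score of both Prm1 and Prm2. TAF7L was at 0 in the promoter class of all 3 genes. In the proximal class TAF7L was 45.8 at Tnp2 and Prm2 and 37.3 at Prm1, and in the distal class 93.4 at each. These genes had a high Pol II score at the start site with no TAF7L score there, and shared TAF7L scores farther away. All 3 genes were picked with their values known.

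Some small proximal scores were a constant fraction of the promoter score of the same transcript. Of 488 TAF7L proximal scores under 5% of the promoter score, 194 had a ratio of 0.0014 to 0.0015 and 258 a ratio of 0.027 to 0.03. The same bands held 235 and 348 of 1220 such Pol II scores. Rpusd4, for example, had a TAF7L promoter score of 118 with 0.172 in the proximal class, and a Pol II promoter score of 805 with 1.19. Setting scores under 5% of another class to 0, chosen after the data were seen, raised the share with the same combination from 45.4% to 46.5%.

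At promoters with both scores, TAF7L was lower than Pol II by a median log2 ratio of −2.83, a ratio of 0.141, over 15951 transcripts. From the 5th to the 95th percentile the log2 ratio ran from −3.79 to −1.68. It was at least 2-fold above the median for 1100 transcripts, 6.90%, and at least 2-fold below for 694, 4.35%. Proximal ratios were more widely spread, from −4.06 to −0.44 around a median of −2.63, with 15.9% at least 2-fold above and 9.86% at least 2-fold below. The distal median was −2.81. Across the transcripts with both scores Spearman's rho was 0.602 in the promoter, 0.624 in the proximal and 0.627 in the distal class. These points share libraries and, at neighbouring genes, scores.

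TAF7L became more frequent with each rise of the Pol II promoter score. When the 29658 Pol II-scored transcripts were split into deciles, from 1 for the lowest Pol II scores to 10 for the highest, TAF7L was present at 2.19% in decile 1. It was at 10.3% in decile 3, 50.5% in decile 5, 83.8% in decile 7 and 98.6% in decile 10. The median TAF7L score, where present, rose less steeply than Pol II, from 39.2 in decile 1 to 105 in decile 10. The median log2 ratio, over transcripts with both, was −0.15 in decile 1 and −3.27 in decile 10. In decile 1 it covers the 65 of 2963 transcripts with TAF7L, and the overall median ratio would there give a TAF7L score of 7.99. That is under nearly all listed TAF7L scores, so the ratios of the low deciles are set by which transcripts have a score, and nothing is read from the decline. Part of the transcripts without TAF7L had Pol II scores at which a TAF7L score of usual size would fall under the lowest ones listed. The 1st percentile of TAF7L promoter scores was 29.9, which at the median ratio goes with a Pol II score of 213, and 72.8% of the Pol II transcripts without TAF7L lay below it. At or above 213, 80.1% of transcripts had TAF7L, and below it 8.88%. Below that level an absence of TAF7L could not be told from a proportionally small score.

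RNA went with the promoter state. In the pooled wild-type RNA library, the median expression signal was 4.68 for transcripts with both promoter scores, 1.13 with Pol II alone, 3.05 with TAF7L alone and 0.13 with neither. A signal of at least 1 was seen for 83.7% with both and for 52.2% with Pol II alone. The Pol II score differed alongside, with medians of 506 and 131. In all 10 deciles of the Pol II score the median signal was the higher where TAF7L was present. It was 3.61 with TAF7L and 2.13 without in decile 5, and 6.93 and 4.95 in decile 10.

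The X chromosome stood below all autosomes. Of 842 X-linked transcripts with a Pol II promoter score, 55 had TAF7L, 6.53%, whereas the 19 autosomes ranged from 45.7% to 61.0%. Pol II scores were themselves lower on the X, with a median of 143 against 247 to 366 on the autosomes. At Pol II scores of 213 or more, TAF7L was present at 18.7% of 257 X-linked transcripts, against 76.8% to 84.0% on the autosomes. Within deciles of the Pol II score, TAF7L was present at 24 of 109 X-linked transcripts in decile 5, 22.0%, against 51.6% of autosomal ones. In decile 6 the shares were 12.7% of 71 against 73.4%, in decile 7 36% of 25 against 84.2% and in decile 8 42.9% of 7 against 93.0%. X-linked transcripts with both had a median log2 ratio of −3.08, outside the autosomal range of −2.91 to −2.75.

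Taf7l itself was among the X-linked genes with both, with a TAF7L score of 39.2 and a Pol II score of 222. Pgrmc1, a haem-binding membrane protein gene, had 49.6 and 458, and Huwe1, a ubiquitin ligase gene, 41 and 386. Gm595 had 76 and 408, the highest TAF7L score among X-linked genes with a Pol II score above 213. X-linked genes with high Pol II but a TAF7L score of 0 included Fmr1, an RNA-binding protein gene, with 650, Ddx3x, an RNA helicase gene, with 622, Ofd1, a centriole protein gene, with 618, and Rbbp7, a histone-binding protein gene, with 544. These X-linked examples, other than Taf7l, were picked with their values known.

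**Figure D3:**
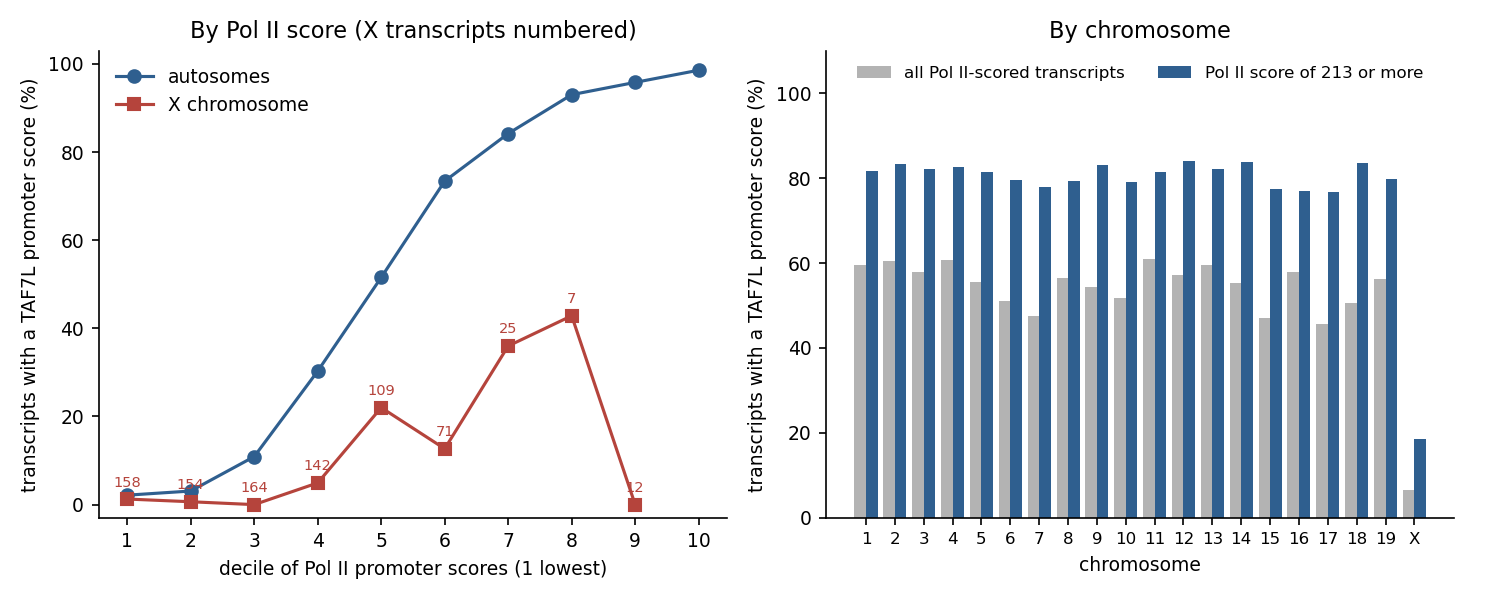
Left, the percentage of Pol II-scored transcripts with a TAF7L promoter score in deciles of the Pol II score, for autosomes and the X chromosome (numbers give the X-linked transcripts in each; decile 10 had none); right, the percentage by chromosome, for all Pol II-scored transcripts and for those with a Pol II score of 213 or more. The X-linked points lie under the autosomal ones in each decile drawn, and the X bars of 6.53% and 18.7% are the shortest.

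Promoters of 1 gene were not always alike. Among 1047 named genes whose transcripts had 2 or more different Pol II promoter scores, TAF7L was present at every one in 252, at none in 409 and at some in 386. In 356 of those 386 genes, 92.2%, the promoter with the highest Pol II score was one with TAF7L. Over all transcripts TAF7L was likewise more frequent at higher Pol II scores. Below a Pol II score of 213 its absence could not be told from a proportionally small score. No preference of TAF7L for the main promoter of a gene is therefore read from this share.

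Genes that share a start region mostly had the same scores. The promoter class was read above as reaching about 500 bp, from equal scores of such neighbours. The equal scores given here therefore restate that class limit. There were 751 pairs of named genes with start sites within 400 bp on opposite strands. Pol II was scored at both in 709 pairs, with the same score in 680, and TAF7L at both in 574, with the same score in 539. Of the 1417 paired genes with Pol II, 81.8% had TAF7L, against 54.8% of 8507 unpaired ones. A signal shared by a pair is counted at both of its genes. Paired genes also had more Pol II, with a median score of 483 against 322, while their median log2 ratios were −2.87 and −2.83. Within deciles of the Pol II score the TAF7L share was higher for paired genes in 9 of 10, by −2.87 to 16.8 percentage points, although the smallest group held 20 paired genes.

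Each named gene was represented by the transcript with the highest sum of its promoter scores. TAF7L was scored at the promoter of 7133 of 21628 genes (33.0%), and Pol II at 12368 (57.2%). Of the 12368 with Pol II, 57.4% had TAF7L. TAF7L was in the proximal or distal class but not at the promoter for 23.6% of all genes, and for 48.6% of the 5269 genes with Pol II but no TAF7L at the promoter. Of the 7099 with both, 6.62% had a ratio at least 2-fold above the gene median and 4.70% at least 2-fold below. Gene lists are read against these shares, and a list's ratio is given as the log2 difference from the median over genes, which was −2.83.

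The highest TAF7L promoter score of a named gene was at Taf5, the gene of a TFIID scaffold subunit (chromosome 19, 47142237 to 47157969, mm9). It was 929 beside a Pol II score of 1050, a log2 ratio of −0.18. Gga3, a sorting adaptor gene, and Mrps7, a mitochondrial ribosomal protein gene, share a start region on chromosome 11 and had 676 for TAF7L and 646 for Pol II. Cops6, a COP9 signalosome subunit gene, had 652 and 641. These TAF7L scores were far above the 95th percentile of 155 over transcripts. For Pol II the 95th percentile was 958, which Taf5 exceeded and the other 3 genes did not.

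Further genes with a high ratio were Sfi1, a centrin-binding protein gene, with 516 and 403, and Gm16517 (now Tpgs1, a tubulin polyglutamylase subunit gene) with 488 and 417. Kctd10 and Ube3b, which also share a start region, had 484 and 423. Srp72, a signal recognition particle gene, had 394 and 437. At these genes TAF7L was close to or above Pol II, whereas the median ratio was 0.141.

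At the other end were promoters with very high Pol II and ordinary TAF7L, taken from genes with both scores at or above their medians of 71 for TAF7L and 339 for Pol II. Errfi1, an EGF receptor inhibitor gene, had 75.3 for TAF7L and 2170 for Pol II, a log2 ratio of −4.85. Fth1, the ferritin heavy chain gene, had 88.2 and 2070, and Gtf2a1, the gene of the large TFIIA subunit, 74.8 and 1530. H3f3b, which encodes the replacement histone H3.3, had 88.2 and 1730, and Actb, the beta-actin gene, 89.4 and 1630. The limit of 71 sets the least TAF7L score these genes could have. Below it, ratios as low were found at Hist1h1c, a linker histone gene, with 32.4 and 926, and at Pdha2, a testis pyruvate dehydrogenase gene, with 24.5 and 631.

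Other promoters among the highest Pol II scores did come with raised TAF7L. Srsf7, a splicing factor gene, had 3260 for Pol II and 361 for TAF7L, and Nabp1, a single-strand DNA-binding protein gene, 3210 and 313. Polr2a, the gene of the largest Pol II subunit, had 2490 and 175. All 3 nevertheless had log2 ratios below the gene median, from −3.17 at Srsf7 to −3.83 at Polr2a.

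**Figure D4:**
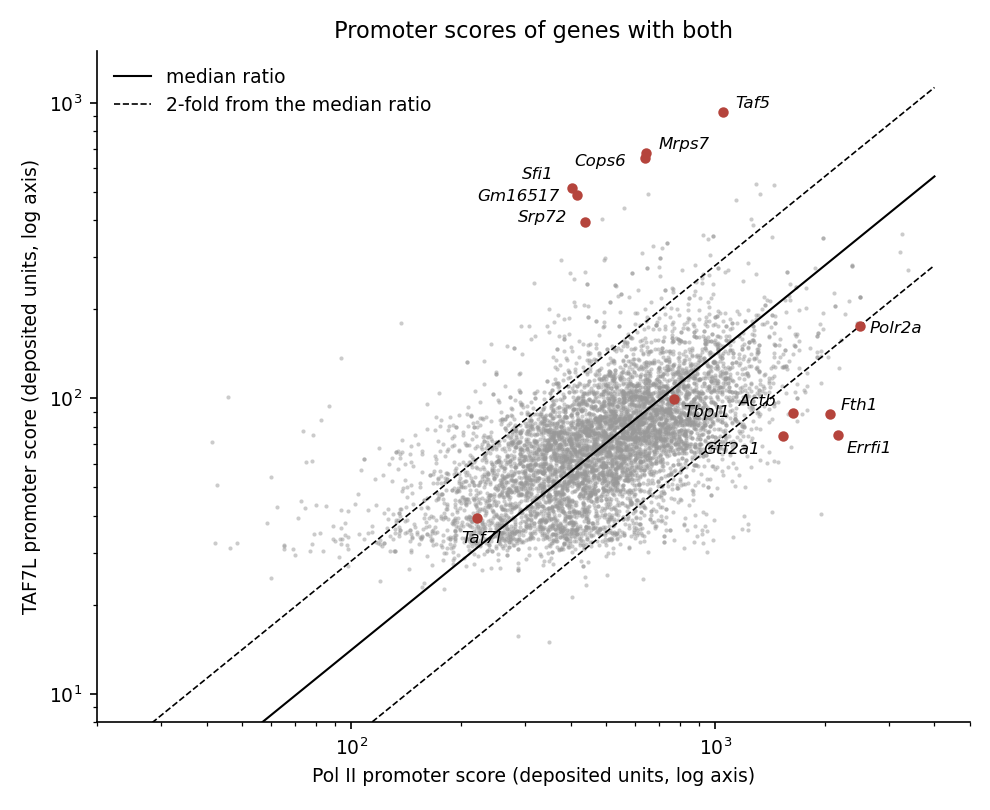
TAF7L against Pol II promoter score (deposited units, both axes logarithmic) for the 7099 named genes with both, of which 6 lie outside the drawn range; the solid line is the median ratio, dashed lines lie 2-fold from it, and red points are genes named in the text. Taf5, Mrps7, Cops6, Sfi1, Gm16517 and Srp72 lie above the upper dashed line, and Errfi1, Fth1, Gtf2a1 and Actb below the lower one.

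A TAF7L promoter score without Pol II was rare. Ctnnb1, the beta-catenin gene, had 203 and Prmt5, an arginine methyltransferase gene, 155. Pol II was in the proximal class at Ctnnb1, with 54.3, and in the distal class at Prmt5, with 572. Syce1, a synaptonemal complex gene, had 117 with a distal Pol II score of 43.3.

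Pol II without TAF7L reached high scores at a few promoters. Hist1h2ba and Hist1h2aa, testis histone variant genes that share a promoter, had a Pol II score of 1120 and a TAF7L score of 0. Tnp2 had 1090, with an RNA signal of 13511, and Prm1 871, with 17005. Gadd45a and Btg2, growth arrest genes, had 960 and 909. Apart from Hist1h2ba these genes were picked with their values known.

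The closest relatives of TAF7L and its partners mostly had both. Of 9 genes for TAF7, TBP and TFIIA relatives, 7 had TAF7L and 8 Pol II, against 33.0% and 57.2% of all genes. Gtf2a2, the gene of the small TFIIA subunit, had 107 for TAF7L and 1210 for Pol II. Tbpl1, which encodes TRF2, had 99.7 and 772, Tbp 86.6 and 611, and Gtf2a1l, the testis form of the TFIIA large subunit, 47.6 and 385. 4933416C03Rik (now Taf7l2), a TAF7 relative, had 97 and 458. Taf7 had Pol II alone, at 418, and Tbpl2, an oocyte TBP relative, had neither at its promoter.

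General transcription genes were nearly always scored for Pol II, against 57.2% of all genes. TAF7L was at 33.0% of all genes. Over all genes with both, 6.62% of ratios were at least 2-fold high and 4.70% at least 2-fold low. Of 32 TFIID and general transcription factor genes, 26 had TAF7L and 32 Pol II, with 4 ratios at least 2-fold high, Taf5 the highest, and 3 at least 2-fold low. Taf4a had 206 for TAF7L and 2130 for Pol II, and Taf12 60.6 and 1390, the lowest ratio of the list. Mediator, the complex between activators and Pol II, had TAF7L at 25 and Pol II at 30 of 30 genes. Pol II subunit genes had 10 and 13 of 13, with a median ratio 0.28 log2 units below the gene median. Pausing and elongation factor genes had 24 and 27 of 27, with a median 0.30 below.

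Ribosomal protein genes mostly had both scores, whereas TAF7L was at 33.0% and Pol II at 57.2% of all genes. Over all genes with both, 6.62% of ratios were at least 2-fold high and 4.70% at least 2-fold low. Of 76 cytosolic ribosomal protein genes 68 had TAF7L and 74 Pol II, and of 76 mitochondrial ones 64 and 74. The median ratio was 0.08 above the gene median for the cytosolic list and 0.30 above for the mitochondrial list. In the mitochondrial list 10 of 64 ratios were at least 2-fold high, with Mrps7 the highest, and 2 were at least 2-fold low, with Mrps6 the lowest at 46.9 and 970. Proteasome subunit genes had TAF7L at 29 and Pol II at 36 of 39.

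Among germ cell genes, by count, piRNA and meiotic genes had TAF7L more often than the chromatin genes of late spermatids. Over all genes TAF7L was at 33.0% and Pol II at 57.2%. Of 18 piRNA pathway genes, which silence transposons, 17 had both. Mael had the highest scores of that list, 153 for TAF7L and 1200 for Pol II. Of 30 meiotic prophase genes 21 had TAF7L and 28 Pol II, with Sycp2 at 261 and 959 and Sycp3 at 215 and 1600. Of 22 spermatogonial genes 5 had TAF7L and 13 Pol II, with Dazl, an RNA-binding germ cell gene, highest at 157 and 1260. The median Pol II score of this list was 161, against 668 for the piRNA and 430 for the meiotic list. It lies under 213, the level below which an absence of TAF7L could not be told from a proportionally small score.

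For spermatid lists the Pol II share stayed high and the TAF7L share varied. Of all genes with Pol II, 57.4% had TAF7L, and the tail list was near this at 62.1%. Postmeiotic regulator genes had TAF7L at 14 and Pol II at 20 of 20, with Sox30, a transcription factor gene, at 160 and 589. Of 29 acrosome genes 19 had TAF7L and 26 Pol II. The proacrosin gene Acr had 98.2 and 1210. Of 32 tail genes 18 and 29 had a score, with Ropn1l highest at 228 and 2120. Sperm metabolism genes had 9 and 19 of 20, with Ldhc, the testis lactate dehydrogenase gene, at 104 and 704. Spermatid chromatin genes had 4 and 16 of 16, the largest gap between the antibodies among these lists, and their median Pol II score was 504. The other 12 had Pol II alone at the promoter, and 9 of them had TAF7L in the proximal or distal class, against 48.6% of all such genes. The same held for 7 of 11 such tail genes and 4 of 6 postmeiotic regulator genes. It held for 3 of 10 sperm metabolism genes and 0 of 7 acrosome genes.

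Genes of other testis cells and of the epididymis seldom had TAF7L at their promoters, and their Pol II scores were also low. Of 24 Sertoli cell genes 1 had TAF7L and 18 Pol II, with a median Pol II score of 102. The one with TAF7L, Tjp1, a tight junction gene, had 64.1 and 706. Of 23 Leydig cell genes 2 had TAF7L and 13 Pol II, with Fdx1, an electron donor in steroid synthesis, at 104 and 559. Peritubular genes had TAF7L at 0 and Pol II at 10 of 11, with a median Pol II score of 119. Leukocyte genes had 1 and 3 of 16, endothelial and blood genes 0 and 4 of 10, and epididymis genes 0 and 2 of 19. Since 213 was the Pol II score at which TAF7L of usual size would meet its lowest listed values, the somatic medians lie below the level at which its absence could be seen.

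Replication-dependent histone genes combined Pol II with little TAF7L. Of 61 such genes 55 had Pol II and 6 TAF7L, and 47 had TAF7L in the proximal or distal class only, against 23.6% of all genes. Of the 49 with Pol II but no TAF7L at the promoter, 43 had TAF7L in another class, against 48.6%. These genes lie in clusters, so neighbours share such scores. Hist1h4c had a TAF7L score of 53 and the highest Pol II score of the list, 1400. Their median Pol II score was 234. Zinc finger genes named Zfp had TAF7L at 147 and Pol II at 297 of 366. Of the Zfp genes with Pol II 49.5% had TAF7L, not far from the 57.4% over all genes. Olfactory receptor genes, which are silent outside sensory tissue in the main, had 1 and 6 of 1113.

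Small RNA genes are often inside or next to other genes, and their promoter scores can be those of a host. Of 506 microRNA genes 22 had TAF7L and 53 Pol II, while 219 had TAF7L in another class only, against 23.6% of all genes. Mir3091 had 189 for TAF7L and 447 for Pol II, the same values as Rps21, a ribosomal protein gene. Small nucleolar RNA genes had 16 and 18 of 100, and Snord43 shared 104 and 1150 with Rpl3.

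A few scores stood outside the range of named promoters. The Mir715 transcript, whose name was not in the RefSeq table used, had the highest TAF7L promoter score, 1310, with 909 for Pol II. Distal scores of 13400 for TAF7L and 11200 for Pol II were listed at Fam118b and Rpusd4, 3160 and 2410 at Pak3, and 1340 and 1100 at Chl1. None of the TAF7L distal scores among these was the TAF7L promoter score of any transcript, and in all 3 TAF7L exceeded Pol II. The Pol II distal scores were not compared in this way. Transcripts of the mitochondrial genome had proximal TAF7L scores from 475 to 604 and Pol II scores from 78.9 to 297. These places were picked with their values known. Whether the IgG library was also high at these places was not analysed here.

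Promoter letters were compared only among genes with both scores, of which 5823 of 7099, 82.0%, had a RefSeq window of 300 bases, from 250 before to 50 after the start. Over all named genes 16515 windows were matched, 76.4%, and for genes with Pol II but no TAF7L at the promoter 77.8%. Both are under the 80% taken here as the least for a comparison, so genes that lack TAF7L were not compared by sequence. Where a gene had several windows, the one whose distance to the far end of the gene was nearest to the deposited transcript was used. AAGATGGC on either strand was present in 410 of the 5823 windows, 7.04%, against 2.91% of the windows of all 27025 RefSeq genes with one. That reference also holds genes with neither score, so a difference from it cannot be tied to TAF7L. A match is a description of letters and does not show that a factor was bound.

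Windows with AAGATGGC went with more TAF7L. The median TAF7L score was 95.9 in the 410 genes with these letters and 69.6 in those without, and the median Pol II scores were 572 and 497. The ratio was a median of 0.23 log2 units above the overall median with the letters and 0.01 below without. It was at least 2-fold high in 15.4% of genes with the letters and in 5.97% without. The median TAF7L score was the higher with the letters in 9 of 10 deciles of the Pol II score. These deciles were cut over all genes with Pol II and a window, also those without TAF7L. Deciles 1 and 2 rest on very few genes: 14 and 10 held the letters, of which 7.14% and 10% had TAF7L. The exception was decile 2, with 24.1 against 38.8.

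The share of windows with these letters rose mainly at the top of the TAF7L range. Ranked by TAF7L score, it was 3.60% in decile 1, 13.0% in decile 9 and 19.9% in decile 10. Ranked by Pol II score, it ran from 3.29% in decile 1 to 7.89% in decile 10, with a peak of 9.95% in decile 8. Ranked by ratio, it went from 2.75% to 14.4%. Among genes with both scores at or above their medians, 10.4% of 2725 held the letters. Of the 20 of these with the highest ratios 12 held them, and of the 20 with the lowest ratios 0.

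**Figure D5:**
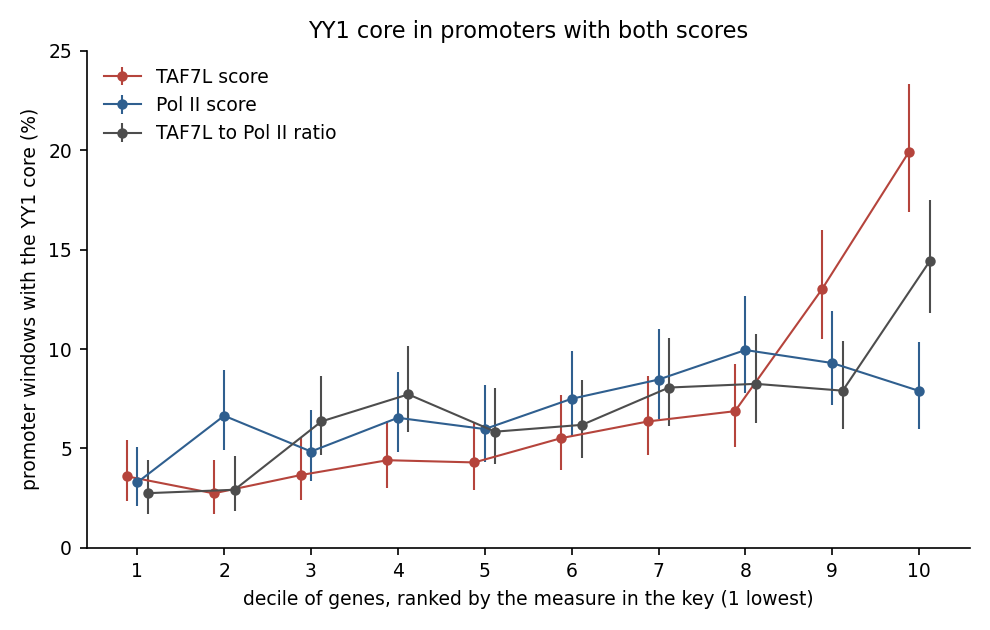
Percentage of promoter windows that hold AAGATGGC on either strand, among the 5823 genes with both scores, in deciles of genes ranked by TAF7L score, by Pol II score or by their ratio; bars are 95% Wilson intervals, for counting over genes. The TAF7L curve ends at 19.9% and the Pol II curve at 7.89%.

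The letters also had a preferred place and strand in the windows of genes with both scores. Genes that lack TAF7L were not compared by sequence, so this is not shown to be particular to promoters with TAF7L. Of 427 matches in these windows, 303 were on the strand of the gene, 71.0%, and 243, 56.9%, began after the annotated start, where 14.7% of the possible positions lie. The median position of the same-strand matches was base 15, counted from 1 at the start. In the sequences printed above they begin at base 15 in Taf5, 19 in Mrps7, 5 in Tpgs1 and 21 in Srp72. The TATA letters of Errfi1 and H3f3b begin 28 and 27 bases before the start. Taf5 also has TATAAA, in the part of its window that is not printed. Prm1, with no TAF7L promoter score, has AAGATGGC in the part of its window that is not printed, so the letters also occur without a TAF7L score.

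The other 9 motifs searched went with smaller differences in the median TAF7L score. The largest of these was at the A-MYB core AACCGTTA, which only 14 genes held, or 0.240% against 0.144% of all windows, with 91.6 against 71 without it. GGGCGG, the GC box, was in 4079 windows, 70.0%, against 36.5% of all windows, and the ratio was 0.04 log2 units below the median with it and 0.11 above without. TATAAA was in 310, 5.32%, against 14.1% of all windows, with a median TAF7L score of 74.7 against 70.8 without. With TATAAA the ratio was 0.01 log2 units above the median. It was at least 2-fold high in 12.3% of genes with TATAAA and in 6.31% without. TGACGTCA, the cyclic AMP response element, was in 239, 4.10% against 1.86% of all, and the ratio was 0.15 below the median. TGACG is contained in it and was in 38.7%, against 21.1% of all. GTTGCCA, a site of the RFX factors, was in 285, 4.89% against 4.47% of all, and the ratio was 0.18 above the median. CCAAT was in 39.3% against 37.9% of all windows, CCGGAAG, the ETS core, in 24.3% against 9.27%, and GCGCATGC, the NRF1 core, in 7.76% against 2.84%. All windows include those of genes with neither score, so these differences in share cannot be tied to TAF7L.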

How the data were processed

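ChIP-seq libraries of TAF7L and of Pol II from mouse testis, wild type per the labels, 1 each, were compared. The deposited binding table gives a score per transcript, antibody and position class, per the file headers, and the deposited expression table a signal per transcript and the mm9 coordinates. Bowtie, TopHat, Cufflinks and build mm9 are named in the submitters' processing notes. Peak calling, the definition and normalization of the score, the class limits, any use of the IgG library and the depth of the ChIP libraries were not stated in the labels or headers, so the precision behind 1 score is unknown. The RNA signal is 1 library pooled from mice of the group.

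Scores were used as deposited, and a score above 0 counted as present. Names were matched to RefSeq symbols or synonyms for 46887 transcripts (84.6%), of which 5422 went through a synonym, giving 21628 genes. For 69 transcripts no coordinates were matched, and 4 listed as NaN in the distal class were left out there. Ratios are log2(TAF7L/Pol II) with no pseudocount. Intervals of medians are binomial order-statistic intervals at 95%. The computation used Python 3.11 with pandas, scipy and matplotlib, and the functions were tested on simulated tables. Genes were named by rule: the 8 highest scores per antibody and class, the 8 highest and lowest ratios among genes with both scores at or above their medians, the 8 highest TAF7L scores without Pol II, and the extremes of each of 27 gene lists. Members, lists, motifs and comparisons were chosen with earlier results of these data known. Alternatives changed the unit (gene, or identical transcripts once), the lowest scores, the sex chromosomes, the number of Pol II scores and the form of the ratio.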

Additional observations from a re-analysis of the deposited data

How the results depend on the processing

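Under the alternatives run, only log2 ratios and differences between them could change sign, and none did. Shares and median scores cannot be negative, so for them only the size of a shift was read. Of 38 alternative values for the main measures of the promoter class, the combinations and the deciles of the Pol II score, 14 stayed within the 95% interval of the reported value and 24 moved outside it. Of 72 further values, for the proximal and distal classes and the YY1 letters, 28 stayed and 44 moved. With 1 value per named gene, here the highest score over its transcripts in each class and not the scores of 1 transcript, TAF7L was at 33.1% and Pol II at 57.2% of promoters, the median Pol II score was 339, and 57.6% of Pol II promoters had TAF7L. With identical transcripts at 1 start site counted once, these were 23.6%, 47.8%, 269 and 49.0%, the median TAF7L score was 70.4, 99.3% of TAF7L promoters had Pol II and the median log2 ratio was −2.81. Without the lowest 25% of scores, TAF7L was at 21.7% and Pol II at 40.2%, the medians were 81.1 and 410, 99.2% of TAF7L promoters had Pol II, the log2 ratio was −2.76, and 53.1% of TAF7L-scored transcripts had the same combination for Pol II. Without chromosomes X and Y the median Pol II score was 318. With only as many of the highest Pol II promoter scores as there were TAF7L scores, 86.1% of TAF7L promoters had Pol II and 86.1% of those Pol II promoters had TAF7L, so the shares of 99.5% and 53.8% rest on the greater number of Pol II scores. The median log2 ratio was −3.04 with 10 added to each score where either was present, and −2.98 for the sum of the 3 classes. Setting scores under 5% of another class to 0, chosen after the data were seen, gave 46.5% with the same combination. The log2 ratio difference between genes with and without AAGATGGC was 0.24 as reported and 0.24 to 0.25 under 3 other choices of windows or genes, also chosen after the data were seen. The cause of these shifts was not tested. No paired analysis was possible because each antibody has 1 library and no replicate number.

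The main limits are the single library per antibody, a score with no stated definition or depth, and no IgG values in the table. The lowest signal that would be listed is not known. Neighbouring genes and transcripts of a gene repeat the same score, so counts over transcripts are not counts of binding sites.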
